A study of Mus musculus with 15 samples.

Results

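The matrix metalloproteinases (MMPs), the ADAMTS proteases, the ADAMTS-like proteins and the tissue inhibitors of metalloproteinases (TIMPs) were described in cultured mouse primary astrocytes. The members were the rows of the count tables whose symbol is Mmp, Adamts, Adamtsl or Timp followed by a number only, with Mmp1a and Mmp1b added, which gave 50 of 25748 gene symbols. They comprised 22 Mmp, 19 Adamts, 5 Adamtsl and 4 Timp genes. Of these, 39 had enough counts to be tested (15 Mmp, 16 Adamts, 4 Adamtsl and 4 Timp) and 11 had too few.

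Polyadenylated RNA was sequenced from 15 libraries of primary astrocytes taken from mouse brain, with 5 libraries per group. The Rg1 plus LPS group was pretreated with 80 µM Rg1, a ginsenoside of ginseng, for 12 h and then received 1 µg/mL lipopolysaccharide (LPS, a bacterial cell wall component that activates Toll-like receptor signalling) for 6 to 8 h. The LPS group, which the submitters name SCI for spinal cord injury, received that dose of LPS for 6 to 8 h without Rg1, and no injured tissue was sequenced. The control group carries the label control, and no agent is named for it. The samples analysed here hold no group given Rg1 alone. Strain and age of the mice are not stated, nor is it stated that replicates are independent cultures, so p-values measure only the spread between these samples. A field of the labels numbers the treatment of the Rg1 plus LPS group upward from Rg1 to Rg5, while titles and design text name 5 replicates of Rg1, and the titles were followed.

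MMPs are zinc-dependent endopeptidases, made as inactive proenzymes, that cut collagens, laminins and other proteins of the extracellular matrix. ADAMTS proteases are secreted enzymes with thrombospondin repeats, among them the aggrecanases, which cut the chondroitin sulfate proteoglycans of brain matrix and glial scars, and the procollagen N-propeptidases. ADAMTS-like proteins share the repeats and lack the protease domain, and TIMPs bind and inhibit the active enzymes. Astrocytes are a known source of several of these proteins after injury and inflammation.

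Total counts per library, in units of 1e6, were 36.2 to 41.1 in the Rg1 plus LPS group, 34.2 to 41.8 in the LPS group and 34.3 to 39.0 in the control group. The 13 mitochondrial protein genes took 2.77 to 4.98% of counts in the Rg1 plus LPS libraries, 1.58 to 2.37% in the LPS libraries and 2.49 to 2.80% in the control libraries. Every one of 12 astrocyte markers was detected in each group, and their summed level was 7405.5 to 11936.7 CPM in the Rg1 plus LPS libraries, 7094.7 to 11891.8 CPM in the LPS libraries and 10570.7 to 13288.9 CPM in the control libraries. Of these markers, 5 were called higher and 1 lower with Rg1 plus LPS against LPS (50.0%, against 45.4% of all tested genes). Compared with control, LPS gave 0 higher and 7 lower (58.3%, against 23.7%), and Rg1 plus LPS 0 higher and 5 lower (41.7%, against 36.9%). The summed level of 12 endothelial and mural markers was separated between all groups, at 122.0 to 156.8 CPM in the Rg1 plus LPS libraries, 207.1 to 242.4 CPM in the LPS libraries and 183.0 to 205.9 CPM in the control libraries. Cdh5 made up most of this sum, averaging 86.8 CPM with Rg1 plus LPS, 140.9 CPM with LPS and 120.5 CPM in control. Vwf averaged at most 0.429 CPM in a group, and Pecam1, Cldn5, Abcc9 and Kcnj8 less. Of the 7 markers tested, 3 were lower and 0 higher with Rg1 plus LPS against LPS (42.9%, against 45.4% of all tested genes). Compared with control, 4 were lower and 0 higher with Rg1 plus LPS (57.1%, against 36.9%). For LPS alone there, 1 was higher and 0 lower (14.3%, against 23.7%). The part of these cell types in the members' values was not tested. CPM are counts per 1e6 of the library size after TMM scaling (trimmed mean of M values). Some libraries stood apart for the members. Replicates 1 and 4 of the Rg1 plus LPS group held both of the lowest values of their group for 25 of 39 tested members, while the same pair was lowest for 25.1% of all tested genes. In the LPS group, replicates 1 and 4 were both lowest for 18 members (18.5% of all tested genes), and replicates 2 and 3 were both highest for 17 members (20.1% of all tested genes). The summed level of 15 fibroblast and meningeal markers was 3457.8 and 4524.1 CPM in Rg1 plus LPS replicates 1 and 4 and 6253.6 to 8398.9 CPM in the other Rg1 plus LPS libraries, against 7311.2 to 9297.7 CPM in the LPS libraries and 6720.9 to 8362.9 CPM in the control libraries. Of the 12 of these markers tested, 3 were lower and 0 higher with Rg1 plus LPS against LPS (Lox, Pdgfra and Pdgfrb), and the other 9 were not called. That is 25.0% called, against 45.4% of all tested genes. Several members are also made by fibroblasts, and the part of fibroblast content in their values was not tested. In these bulk libraries, fewer cells of a type and less RNA per cell cannot be told apart.

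**Figure D1:**
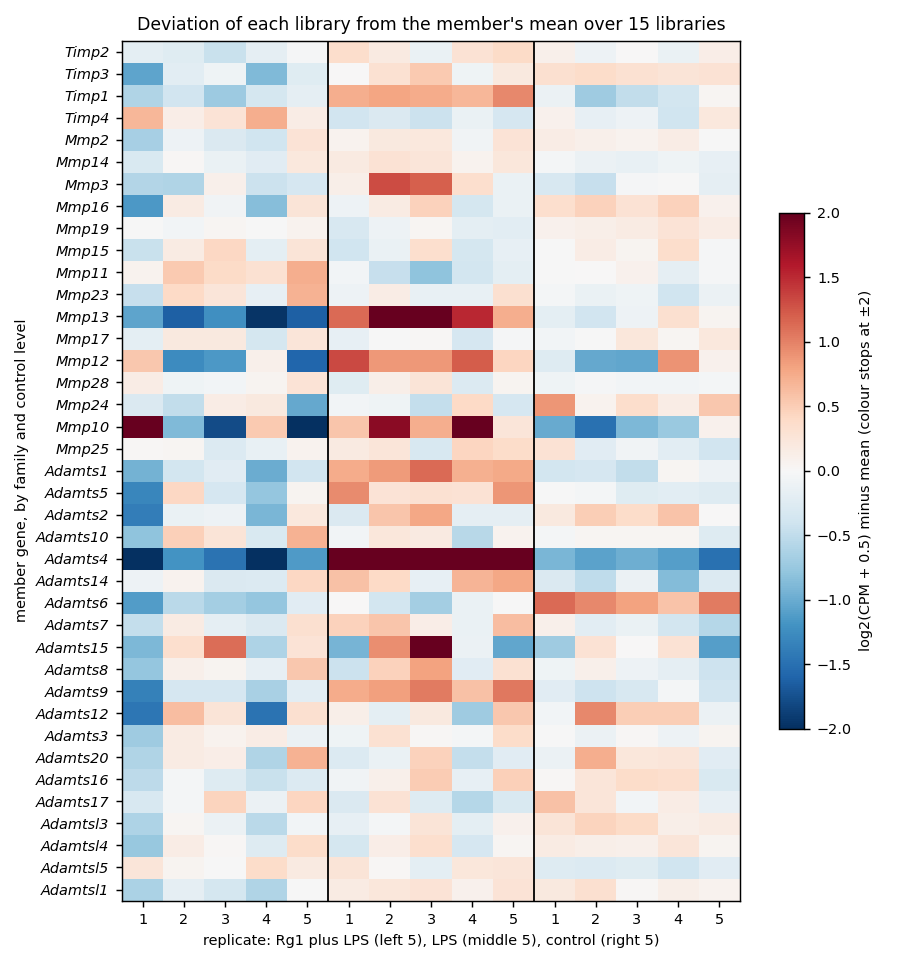
Each row is a tested member and each column a library, with Rg1 plus LPS replicates 1 to 5 on the left, LPS replicates in the middle and control replicates on the right. Colour gives log2(CPM + 0.5) minus the member's mean over 15 libraries, and stops at 2 in either direction. Adamts4 and Mmp13 are high in every LPS library, and Rg1 plus LPS replicates 1 and 4 are lowest of their group for 25 of the 39 rows.

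Per transcript length, the TIMP family had the highest summed level, and Timp1, Timp2 and Timp3 were the 3 most abundant members in every group. In FPKM (fragments per kilobase of transcript, scaled to depth), the 4 TIMPs summed to 1006.1 ± 75.5 in the Rg1 plus LPS group, 1438.3 ± 89.8 in the LPS group and 1187.0 ± 81.1 in the control group (SD, n = 5 each). The Mmp genes summed to 364.9 ± 53.4 FPKM, 476.2 ± 85.1 FPKM and 385.5 ± 18.1 FPKM in the Rg1 plus LPS, LPS and control groups. The Adamts genes summed to 55.4 ± 15.5 FPKM in the Rg1 plus LPS group, 128.3 ± 11.9 FPKM in the LPS group and 63.7 ± 5.09 FPKM in the control group. The Adamtsl genes summed to 29.5 ± 3.55 FPKM, 30.0 ± 1.78 FPKM and 31.1 ± 1.44 FPKM. The Adamts sum was therefore separated between the LPS group (113.8 to 146.6 FPKM) and both other groups (36.9 to 67.5 FPKM with Rg1 plus LPS, 59.0 to 72.2 FPKM in control), while the Adamtsl sums overlapped between all groups. Timp2 had the highest level of all members in each group, at 613.8 FPKM with Rg1 plus LPS, 771.5 FPKM with LPS and 682.2 FPKM in control. In the control group Timp3, Timp1, Mmp2, Mmp14, Mmp3, Adamts1, Mmp16 and Timp4 followed it in this order, and the tested member with the lowest level was Adamts17, at 0.0335 FPKM.

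**Figure D2:**
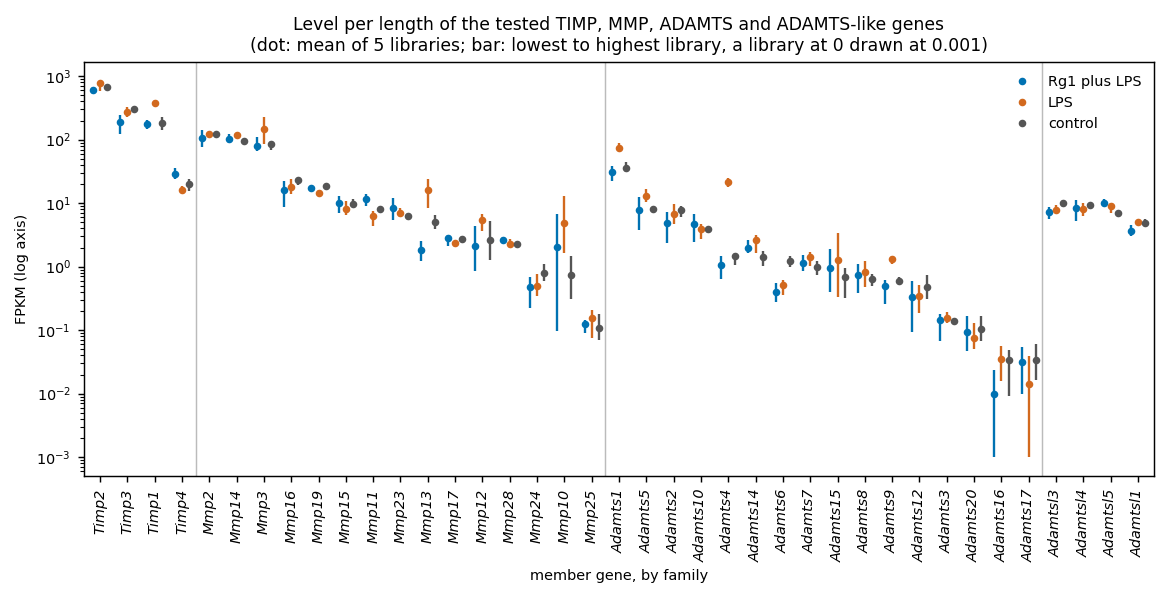
FPKM on a log axis of the 39 tested members in each group, ordered by family and by control level. Dots are means of 5 libraries, bars run from the lowest to the highest library, and a library at 0 is drawn at 0.001. Timp2 is highest in every group, and for Adamts4 and Mmp13 the LPS group lies above both others without overlap.

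Each pair of groups was compared by edgeR's quasi-likelihood F-test on the counts, and a gene with a Benjamini-Hochberg adjusted p under 0.05 over all 15362 genes tested was called. Log2 fold changes are given ± SE. In Rg1 plus LPS against LPS, 3 members were higher and 16 lower, so that 19 of 39 (48.7%) were called where 45.4% of all tested genes were called. The share called was thus close to that of all genes, while the split between directions differed: 22.2% of all tested genes were called higher and 23.2% lower. The median log2 fold change was -0.34 over the members and 0.03 over all genes. With LPS against control, 12 members were higher and 2 lower, so that 14 of 39 (35.9%) were called, against 23.7% of all tested genes (13.8% higher and 9.82% lower). The median log2 fold change was 0.11 over the members and -0.00 over all genes. With Rg1 plus LPS against control, 3 members were higher and 7 lower, which is 25.6% of 39, against 36.9% of all tested genes (18.8% higher and 18.1% lower). Here the median log2 fold change was -0.16 over the members and 0.01 over all genes. A difference of at least 2-fold was called for 8 members with Rg1 plus LPS against LPS (8.16% of all tested genes), 7 with LPS against control (4.97%) and 3 with Rg1 plus LPS against control (5.06%). Groups did not overlap for 8 members with Rg1 plus LPS against LPS, where this held for 27.5% of all tested genes, for 11 members with LPS against control (20.4% of all) and for 7 members with Rg1 plus LPS against control (26.2% of all).

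Of the 12 members higher with LPS than in control, 9 were lower with Rg1 plus LPS than with LPS and 3 were not called there. The comparisons share the LPS libraries, so these counts are a description. The 9 genes were Adamts1, Adamts4, Adamts5, Adamts9, Adamts14, Mmp3, Mmp13, Mmp14 and Timp1. The 3 others were Adamts7, Mmp10 and Adamtsl5. Adamts6 was lower in both comparisons, and Mmp19 was lower with LPS than in control and higher with Rg1 plus LPS than with LPS. Without Rg1 plus LPS replicates 1 and 4, an alternative chosen after seeing the data, 12 members were lower and 6 higher with Rg1 plus LPS against LPS. Of the 16 members first called lower, 11 kept that call, and of the 3 called higher, 2 kept it. The calls lost were those of Adamts6, Adamts14, Adamts16, Mmp2, Mmp14 and Mmp19.

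**Figure D3:**
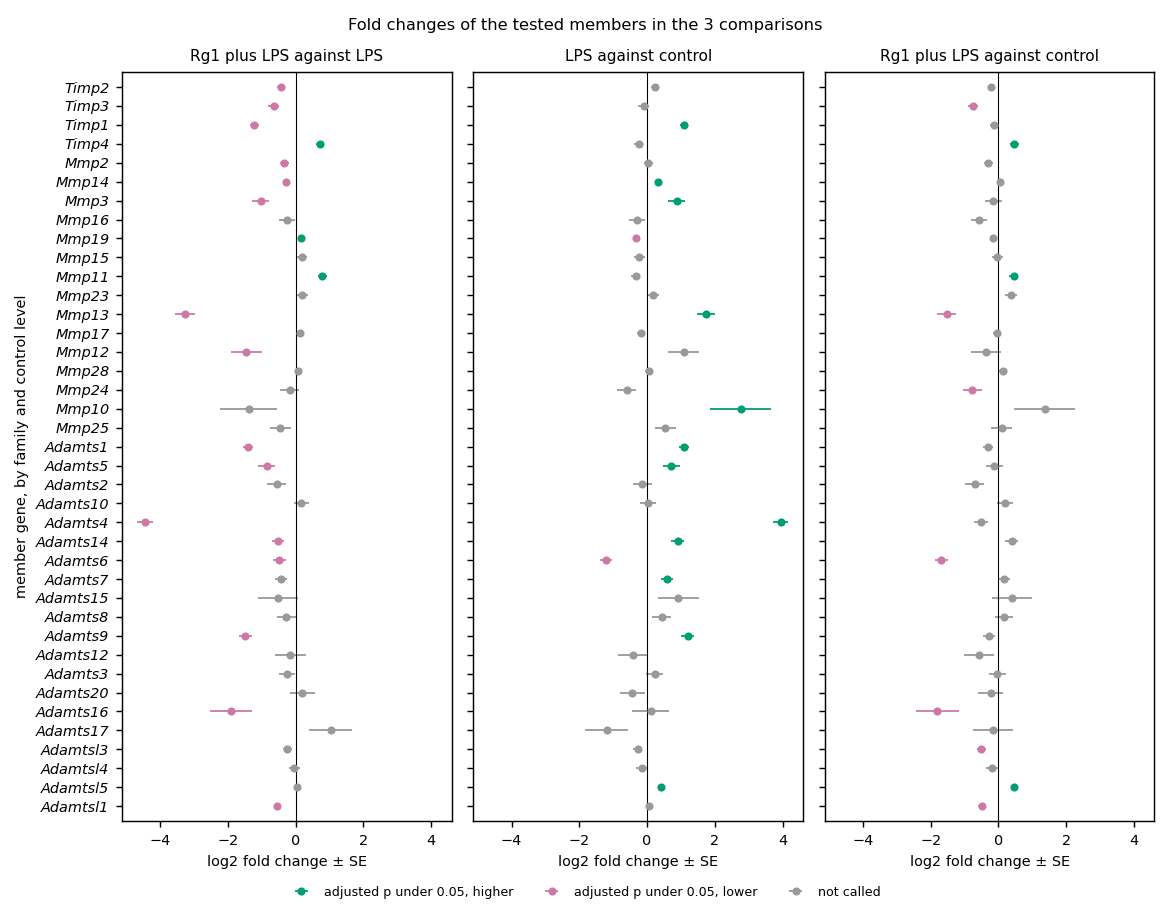
Log2 fold change ± SE of each tested member in the 3 comparisons, with Rg1 plus LPS against LPS on the left. Green marks genes called higher, pink genes called lower and grey genes not called. On the left 16 members lie below 0 and are called, and in the middle 12 lie above 0 and are called, with Adamts4 farthest out in both panels.

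Among the proteoglycan-cutting ADAMTS enzymes, Adamts4 showed the widest difference of all members. Adamts4 (chromosome 1, 171250129 to 171262267 in GRCm38) encodes an aggrecanase that cuts aggrecan, brevican and versican. In replicate order, it had 3.86, 8.64, 7.0, 3.99 and 8.99 CPM in the Rg1 plus LPS libraries, 141.6, 146.1, 147.7, 114.0 and 161.8 CPM in the LPS libraries, and 10.6, 9.38, 10.1, 9.16 and 6.9 CPM in the control libraries. Each LPS library was above every library of both other groups, and the Rg1 plus LPS and control libraries overlapped. Adamts4 fell with Rg1 plus LPS against LPS by 4.45 ± 0.23 on the log2 scale, which is 21.9-fold (adjusted p = 5.28e-10). It rose with LPS against control by 3.94 ± 0.22 on the log2 scale, which is 15.4-fold (adjusted p = 2.52e-09). With Rg1 plus LPS against control its log2 fold change was -0.51 ± 0.21 (adjusted p = 0.0743), and it was called lower there without Rg1 plus LPS replicate 2, without Rg1 plus LPS replicate 5 or without control replicate 5 (adjusted p = 0.031 to 0.0421). In the LPS group it was the eighth most abundant member per length, while it ranked 28 with Rg1 plus LPS and 25 in control.

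Adamts1 and Adamts5, both proteoglycanases, lie next to each other on chromosome 16 with no protein-coding gene starting between them and 55044 bases apart. Adamts1, which also binds vascular endothelial growth factor, had 109.3, 162.2, 178.9, 105.6 and 161.3 CPM in the Rg1 plus LPS libraries, 350.3, 379.0, 459.1, 344.7 and 354.0 CPM in the LPS libraries, and 163.2, 166.0, 149.4, 216.0 and 195.8 CPM in the control libraries. All LPS libraries lay above both other groups, which overlapped. It fell by 1.40 ± 0.15 on the log2 scale with Rg1 plus LPS against LPS (adjusted p = 1.97e-06) and rose by 1.08 ± 0.15 with LPS against control (adjusted p = 5.21e-05). In Rg1 plus LPS against control, it was -0.31 ± 0.15 (log2, adjusted p = 0.108), and without Rg1 plus LPS replicate 3 it was -0.40 (adjusted p = 0.0471). Adamts5, the aggrecanase of cartilage, had 29.4, 98.1, 58.0, 43.1 and 76.9 CPM in the Rg1 plus LPS libraries, 143.0, 89.3, 90.7, 89.9 and 136.1 CPM in the LPS libraries, and 73.6, 71.6, 62.4, 63.6 and 61.3 CPM in the control libraries. The LPS libraries were all above the control libraries, while Rg1 plus LPS replicate 2 lay within the LPS range and replicate 1 was lowest of all. It fell by 0.85 ± 0.25 on the log2 scale with Rg1 plus LPS against LPS (adjusted p = 0.0126), and by 0.49 without Rg1 plus LPS replicates 1 and 4 (adjusted p = 0.0449). With LPS against control it rose by 0.72 ± 0.25 (log2, adjusted p = 0.0488), a call lost without any 1 of 10 libraries (Rg1 plus LPS replicates 3 and 5, LPS replicates 1, 4 and 5, or any control library), with adjusted p = 0.0518 to 0.125.

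Adamts9, which cuts versican and aggrecan, had 2.22, 5.04, 5.02, 3.94 and 5.51 CPM in the Rg1 plus LPS libraries, 11.2, 11.8, 13.8, 9.96 and 14.0 CPM in the LPS libraries, and 5.48, 4.74, 5.1, 6.26 and 4.82 CPM in the control libraries. Every LPS library exceeded every library of both other groups. It fell by 1.48 ± 0.19 on the log2 scale with Rg1 plus LPS against LPS (adjusted p = 9.76e-06) and rose by 1.20 ± 0.19 with LPS against control (adjusted p = 0.000161). The other proteoglycanases were not called in any comparison. Adamts8, which is also known as an inhibitor of angiogenesis, averaged 3.27 ± 1.18 CPM with Rg1 plus LPS, 3.95 ± 1.51 CPM with LPS and 2.93 ± 0.441 CPM in control (SD, n = 5 each). Adamts15 averaged 6.97 ± 4.17 CPM, 10.0 ± 10.5 CPM and 5.27 ± 2.23 CPM in these groups, and LPS replicates 2 and 3 (11.7 and 27.6 CPM) lay above the other LPS libraries (2.61 to 5.39 CPM). Adamts20, known for its part in melanoblast development in mice, averaged 1.04 to 1.40 CPM over the 3 groups.

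**Figure D4:**
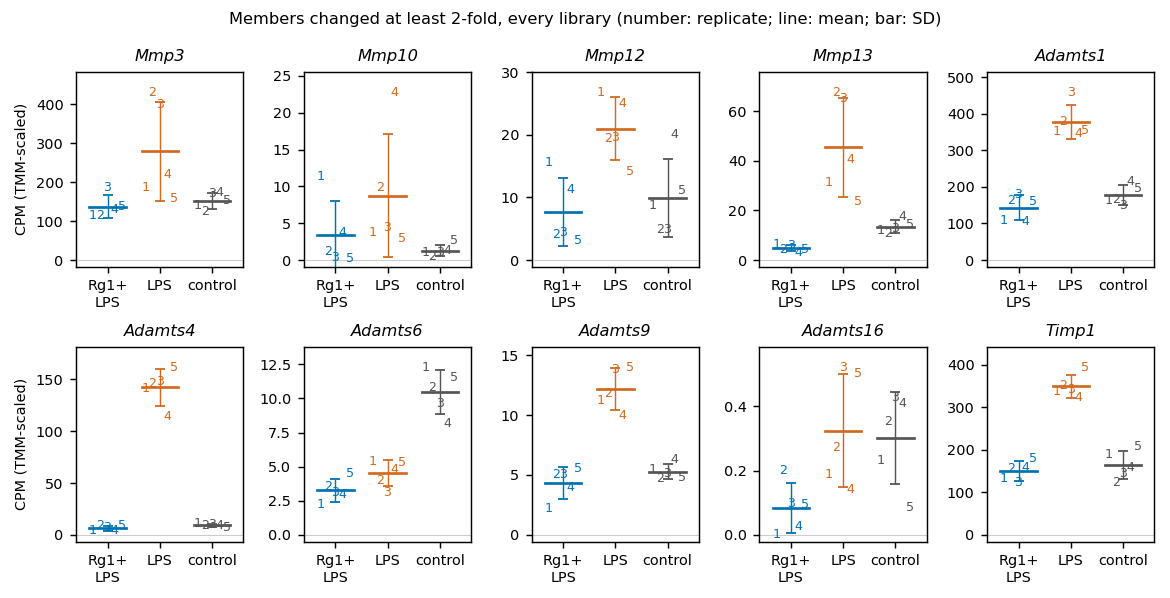
CPM of the 10 members called with a difference of at least 2-fold with Rg1 plus LPS against LPS or with LPS against control. Numbers are replicates, lines are means and bars are SD over 5 libraries, with Rg1 plus LPS left of LPS and control. The LPS libraries stand clear of both other groups for Adamts1, Adamts4, Adamts9, Mmp13 and Timp1, while control is highest for Adamts6 and single libraries spread widely for Mmp10 and Mmp12.

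The procollagen N-propeptidases trim fibrillar procollagens before fibrils form. Adamts14 averaged 10.4 ± 2.32 CPM with Rg1 plus LPS, 14.8 ± 3.48 CPM with LPS and 7.89 ± 1.58 CPM in control (SD, n = 5 each). It rose with LPS against control by 0.91 ± 0.19 on the log2 scale (adjusted p = 0.00221) and fell with Rg1 plus LPS against LPS by 0.52 ± 0.19 (adjusted p = 0.0329). The second call was lost without Rg1 plus LPS replicate 1, 3 or 4 and without LPS replicate 1, 4 or 5 (adjusted p = 0.0567 to 0.086), and with scaling to library size only (adjusted p = 0.0793). Adamts2, the most abundant of the 3, had 16.5, 40.3, 41.2, 23.1 and 51.0 CPM in the Rg1 plus LPS libraries, 36.1, 64.9, 75.3, 38.8 and 38.7 CPM in the LPS libraries, and 50.4, 62.4, 57.0, 65.7 and 44.4 CPM in the control libraries. Replicates 1 and 4 of the Rg1 plus LPS group were lowest, and all groups overlapped. It was not called with Rg1 plus LPS against LPS (log2 -0.56 ± 0.28, adjusted p = 0.115) or against control (log2 -0.70 ± 0.28, adjusted p = 0.0604). Against control it was called lower without Rg1 plus LPS replicate 5 (adjusted p = 0.0296) or without LPS replicate 3 (adjusted p = 0.0374). Adamts3, the third propeptidase, averaged 1.14 to 1.35 CPM over the 3 groups and was not called.

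Of the remaining ADAMTS genes, Adamts6 was called lower in all 3 comparisons, whereas Adamts1, Adamts4, Adamts5 and Adamts9 were higher with LPS against control. Adamts6, a protease that acts on fibrillin microfibrils, had 2.2, 3.52, 3.14, 2.93 and 4.51 CPM in the Rg1 plus LPS libraries, 5.38, 4.01, 3.13, 4.83 and 5.29 CPM in the LPS libraries, and 12.3, 10.8, 9.64, 8.2 and 11.5 CPM in the control libraries. Every control library was above all LPS and Rg1 plus LPS libraries, and the Rg1 plus LPS and LPS libraries overlapped. It fell with LPS against control by 1.21 ± 0.18 on the log2 scale (adjusted p = 0.000122) and with Rg1 plus LPS against control by 1.69 ± 0.19 (adjusted p = 4.99e-06). The further difference between Rg1 plus LPS and LPS was -0.48 ± 0.19 (log2, adjusted p = 0.0479), and it passed the threshold in 3 of the 15 fits that each left out 1 library, namely those without Rg1 plus LPS replicate 5, LPS replicate 3 or control replicate 4. In the other 12 the adjusted p was 0.0507 to 0.114, and with scaling to library size only it was 0.112.

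Adamts16 was near the limit of detection, with 0 to 8 counts per Rg1 plus LPS library, 5 to 20 per LPS library and 3 to 16 per control library. This protease, known to cut fibronectin, had 0.0, 0.199, 0.0989, 0.0266 and 0.0954 CPM in the Rg1 plus LPS libraries, 0.188, 0.271, 0.522, 0.141 and 0.501 CPM in the LPS libraries, and 0.233, 0.352, 0.427, 0.41 and 0.0841 CPM in the control libraries. Rg1 plus LPS replicate 1 held no count, and the groups overlapped. Its log2 fold change was -1.91 ± 0.62 with Rg1 plus LPS against LPS (adjusted p = 0.0198) and -1.80 ± 0.63 with Rg1 plus LPS against control (adjusted p = 0.0331). When Rg1 plus LPS replicates 1 and 4 were left out, neither was called (adjusted p = 0.089 and 0.139), nor was the first without LPS replicate 5 (adjusted p = 0.0542) or without LPS replicates 2 and 3 (adjusted p = 0.0742). The second was lost without Rg1 plus LPS replicate 1, 4 or 5 and without control replicate 2, 3 or 4 (adjusted p = 0.0525 to 0.0776). Adamts7, which cuts cartilage oligomeric matrix protein, averaged 10.5 ± 2.55 CPM with Rg1 plus LPS, 14.1 ± 3.0 CPM with LPS and 9.33 ± 1.7 CPM in control (SD, n = 5 each). It was called higher with LPS against control (log2 0.60 ± 0.18, adjusted p = 0.0237), a call lost without LPS replicate 1, 2 or 5 and without control replicate 4 or 5 (adjusted p = 0.0541 to 0.0671). With Rg1 plus LPS against LPS its log2 fold change was -0.43 ± 0.18 (adjusted p = 0.0585), and it was called lower without Rg1 plus LPS replicate 5 or without LPS replicate 3 or 4 (adjusted p = 0.0206 to 0.0471). Adamts10, which binds fibrillin, averaged 21.4 to 24.6 CPM, Adamts12, a relative of Adamts7, 2.82 to 4.20 CPM, and Adamts17, linked to fibrillin matrix, 0.147 to 0.341 CPM over the 3 groups, and none of the 3 was called. In fits without Rg1 plus LPS replicates 1 and 4, Adamts10 was called higher with Rg1 plus LPS against LPS (log2 0.51, adjusted p = 0.0104) and against control (log2 0.54, adjusted p = 0.0106). Without LPS replicate 2, Adamts17 was called lower with LPS against control (log2 -2.01, adjusted p = 0.0444) and higher with Rg1 plus LPS against LPS (log2 1.85, adjusted p = 0.0372).

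No ADAMTS-like gene was called with a 2-fold difference. Adamtsl1, also called punctin, averaged 37.3 ± 6.98 CPM with Rg1 plus LPS, 54.6 ± 3.0 CPM with LPS and 52.5 ± 4.36 CPM in control (SD, n = 5 each). It fell with Rg1 plus LPS against LPS by 0.55 ± 0.10 on the log2 scale (adjusted p = 0.000389) and against control by 0.49 ± 0.10 (adjusted p = 0.00146), with no overlap in either comparison. Adamtsl5, which binds heparin and fibrillin, had 31.7, 27.6, 26.6, 34.6 and 30.2 CPM in the Rg1 plus LPS libraries, 31.9, 27.2, 23.2, 31.3 and 31.5 CPM in the LPS libraries, and 22.3, 21.9, 22.4, 20.0 and 22.8 CPM in the control libraries. Both LPS-treated groups lay above all control libraries and overlapped each other. It rose by 0.46 ± 0.09 on the log2 scale with Rg1 plus LPS against control (adjusted p = 0.00103) and by 0.41 ± 0.09 with LPS against control (adjusted p = 0.00403), and was not called between Rg1 plus LPS and LPS (log2 0.05 ± 0.09, adjusted p = 0.662). Adamtsl3, a second punctin, had 40.9, 64.5, 57.6, 42.9 and 60.2 CPM in the Rg1 plus LPS libraries, 55.7, 61.1, 75.3, 55.0 and 67.0 CPM in the LPS libraries, and 75.0, 85.3, 81.6, 68.0 and 70.3 CPM in the control libraries. All Rg1 plus LPS libraries were below the control libraries, and the LPS libraries overlapped with both. It fell with Rg1 plus LPS against control by 0.51 ± 0.13 on the log2 scale (adjusted p = 0.00442). In LPS against control, it was not called (log2 -0.27 ± 0.13, adjusted p = 0.122), but was called lower without LPS replicate 3 (log2 -0.36, adjusted p = 0.039). Adamtsl4, a microfibril-associated protein, had 20.8, 39.4, 36.2, 29.6 and 45.9 CPM in the Rg1 plus LPS libraries, 27.7, 39.2, 45.1, 28.0 and 36.6 CPM in the LPS libraries, and 39.9, 38.5, 38.4, 42.0 and 37.1 CPM in the control libraries. Its groups overlapped throughout, and it was not called in any comparison.

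The collagenase genes of the MMP family, the stromelysin genes Mmp3 and Mmp10 and the elastase gene Mmp12 lie side by side on chromosome 9. Between 7272514 and 7581885 (GRCm38.p6, RefSeq) stand, in this order, Mmp13, Mmp12, Mmp1b, Mmp3, Mmp1a, Mmp10, Mmp8 and Mmp27, with no other protein-coding gene starting between them, and Mmp7 follows at 7692090 to 7699585. Of the 9 genes, Mmp3, Mmp10, Mmp12 and Mmp13 had enough counts to be tested. The 250 bases upstream of each RefSeq transcription start were searched on both strands for TGANTCA, the AP-1 motif of 7 bases that Fos and Jun proteins are known to bind, and for a 10-base kappaB motif. RefSeq gave such windows for 35 member genes, 38 windows in all. Members without a window, among them Adamts4, Adamts5, Adamts6, Mmp2 and Mmp9, were not searched. TGANTCA stood in 7 of the 11 windows of the chromosome 9 genes, 1 window in each of 7 of the 9 genes, and in 0 of the 27 windows of the 26 other member genes, against 6.75% of all 32851 promoter windows. The kappaB motif stood in 0 of the 38 windows, against 1.41% of all windows. A match describes the letters of the window and does not show that a factor binds there. The 120 bases upstream of the start of the 4 tested genes are shown because the 4 were measured and share the motif, which is in capitals. All are on the plus strand of GRCm38.p6 and are taken from RefSeq, with chr9:7272394-7272513 for Mmp13, chr9:7347254-7347373 for the second of the 2 starts of Mmp12, chr9:7445702-7445821 for Mmp3 and chr9:7502222-7502341 for Mmp10.
Mmp13: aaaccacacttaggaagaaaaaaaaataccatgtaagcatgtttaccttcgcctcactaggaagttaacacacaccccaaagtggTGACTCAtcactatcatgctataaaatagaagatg
Mmp12: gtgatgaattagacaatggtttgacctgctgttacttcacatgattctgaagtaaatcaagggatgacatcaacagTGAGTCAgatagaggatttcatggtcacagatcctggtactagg
Mmp3: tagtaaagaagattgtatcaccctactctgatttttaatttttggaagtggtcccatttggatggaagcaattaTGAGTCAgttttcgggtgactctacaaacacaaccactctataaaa
Mmp10: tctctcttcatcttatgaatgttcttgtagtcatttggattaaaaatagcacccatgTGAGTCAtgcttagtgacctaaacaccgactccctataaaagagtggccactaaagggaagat
The first base of the motif lies at -35 from the start in Mmp13, -44 in Mmp12, -46 in Mmp3 and -63 in Mmp10. The motif reads TGACTCA in Mmp13 and TGAGTCA in the others. Mmp1a (-73), Mmp1b (-93) and the first start of Mmp7 (-63) also held TGAGTCA, while Mmp8 and Mmp27 did not hold the motif in this window. Nor did the window of the first start of Mmp12 or that of the second start of Mmp7.

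Mmp13, a collagenase that cuts fibrillar collagen, had the second widest difference among the members with Rg1 plus LPS against LPS. It had 6.4, 4.17, 5.66, 3.22 and 4.15 CPM in the Rg1 plus LPS libraries, 31.1, 67.7, 65.0, 40.6 and 23.4 CPM in the LPS libraries, and 12.1, 10.6, 12.9, 17.5 and 14.4 CPM in the control libraries. The 3 groups were fully separated, with LPS highest, control between and Rg1 plus LPS lowest. It fell with Rg1 plus LPS against LPS by 3.27 ± 0.29 on the log2 scale, which is 9.62-fold (adjusted p = 3.09e-07). It rose with LPS against control by 1.75 ± 0.27 on the log2 scale, which is 3.37-fold (adjusted p = 0.000193). Rg1 plus LPS was also below control, by 1.52 ± 0.28 on the log2 scale (log2 fold change -1.52, adjusted p = 0.000678). Without LPS replicates 2 and 3, its highest libraries, the log2 fold change was -2.76 with Rg1 plus LPS against LPS (adjusted p = 3.99e-07) and 1.23 with LPS against control (adjusted p = 0.000928).

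Mmp3, the stromelysin that cuts many matrix proteins and activates other MMPs, had 115.3, 113.9, 187.1, 128.7 and 138.0 CPM in the Rg1 plus LPS libraries, 187.4, 431.4, 400.1, 220.0 and 158.7 CPM in the LPS libraries, and 139.4, 125.6, 171.6, 173.2 and 152.5 CPM in the control libraries. LPS replicates 2 and 3 were far above all others, and LPS replicate 5 lay within the range of both other groups. It fell with Rg1 plus LPS against LPS by 1.03 ± 0.25 on the log2 scale (adjusted p = 0.0032) and rose with LPS against control by 0.87 ± 0.25 (adjusted p = 0.0178). Without LPS replicates 2 and 3, Mmp3 fell by 0.48 with Rg1 plus LPS against LPS (adjusted p = 0.0278), and its log2 fold change with LPS against control was 0.31 (adjusted p = 0.173). Without LPS replicate 2 alone it was 0.66 (adjusted p = 0.0508). Mmp10, the second stromelysin, had 11.4, 1.09, 0.346, 3.7 and 0.167 CPM in the Rg1 plus LPS libraries, 3.79, 9.79, 4.36, 22.8 and 2.98 CPM in the LPS libraries, and 0.956, 0.542, 1.07, 1.26 and 2.63 CPM in the control libraries. The LPS libraries were all above the control libraries, while the Rg1 plus LPS libraries ran from below the control range to above most LPS libraries, with replicates 1 and 4 highest. It was called higher with LPS against control (log2 2.76 ± 0.91, adjusted p = 0.0395), a call lost without LPS replicate 2 or 4 or without control replicate 1, 2, 3 or 4 (adjusted p = 0.0615 to 0.129). In Rg1 plus LPS against LPS, its log2 fold change was -1.39 ± 0.84 (adjusted p = 0.196), against -2.73 without Rg1 plus LPS replicate 1 (adjusted p = 0.011) and -4.02 without Rg1 plus LPS replicates 1 and 4 (adjusted p = 0.00225).

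Mmp12, the macrophage elastase, had 15.5, 4.07, 4.45, 11.2 and 3.15 CPM in the Rg1 plus LPS libraries, 26.8, 19.4, 19.5, 24.9 and 14.2 CPM in the LPS libraries, and 8.68, 4.88, 4.86, 20.0 and 11.1 CPM in the control libraries. Rg1 plus LPS replicate 1 was above the lowest LPS library, and control replicate 4 lay within the LPS range. It fell with Rg1 plus LPS against LPS by 1.45 ± 0.45 on the log2 scale (adjusted p = 0.0167), with a log2 fold change of -2.42 without Rg1 plus LPS replicates 1 and 4 (adjusted p = 0.000702). For LPS against control, its log2 fold change was 1.08 ± 0.45 (adjusted p = 0.0944), and it was called higher without control replicate 4 (log2 1.49, adjusted p = 0.0282) or without Rg1 plus LPS replicates 1 and 4 (log2 1.08, adjusted p = 0.0331). For Rg1 plus LPS against control, it was not called (log2 -0.37 ± 0.45, adjusted p = 0.56), but was called lower without Rg1 plus LPS replicates 1 and 4 (log2 -1.34, adjusted p = 0.0284). Since Mmp12 is known from macrophages, 17 microglia and macrophage markers were set beside it. Their summed level was 118.7 to 147.0 CPM in the Rg1 plus LPS libraries, 135.3 to 219.7 CPM in the LPS libraries and 131.8 to 232.9 CPM in the control libraries, with none at 0 in a whole group. Of the 16 markers tested, 9 were lower and 0 higher with Rg1 plus LPS against LPS (56.2% called, against 45.4% of all tested genes), and 0 were called with LPS against control. Control replicate 4, the highest control library for Mmp12, also had the highest sum of these markers (232.9 CPM). The other groups did not share this match. Rg1 plus LPS replicates 1 and 4, highest of their group for Mmp12, had sums of 128.8 and 118.7 CPM. LPS replicate 1, highest for Mmp12, had a sum of 141.7 CPM, against 219.7 CPM in LPS replicate 3. The part of microglia in the Mmp12 values was not tested.

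**Figure D5:**
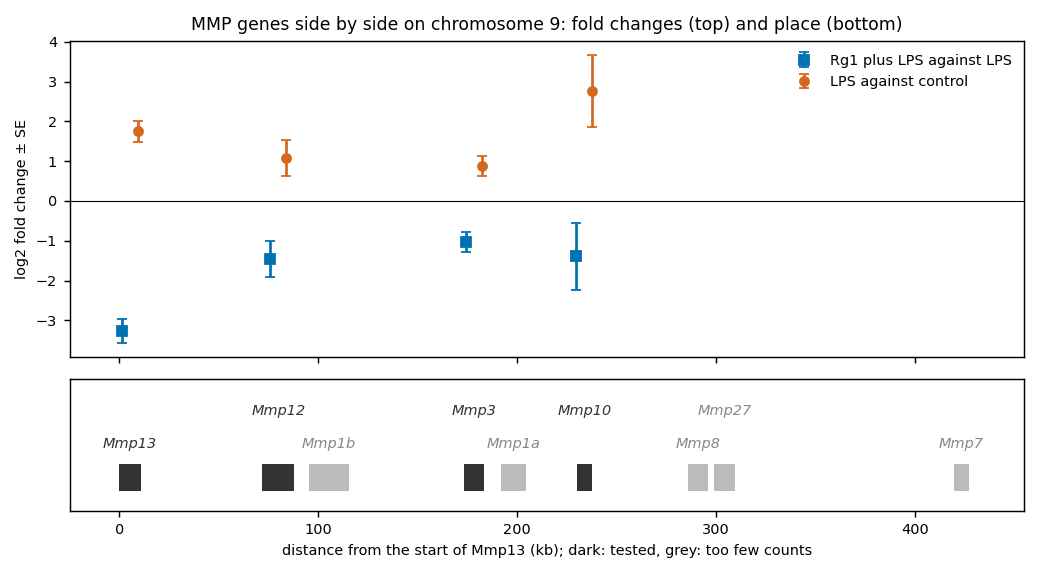
Upper panel, log2 fold change ± SE of the 4 tested MMP genes of chromosome 9, with Rg1 plus LPS against LPS in blue and LPS against control in orange, drawn slightly apart at each gene. Lower panel, the place of the 9 genes in kb from the start of Mmp13, with grey boxes for genes with too few counts. All 4 tested genes lie below 0 with Rg1 plus LPS against LPS and above 0 with LPS against control, where Mmp10 in the blue and Mmp12 in the orange were not called.

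The gelatinase Mmp2, which cuts denatured and basement membrane collagen, had 236.2, 349.8, 306.7, 284.3 and 454.4 CPM in the Rg1 plus LPS libraries, 394.8, 430.9, 431.4, 356.4 and 450.4 CPM in the LPS libraries, and 416.5, 403.5, 394.5, 414.9 and 372.9 CPM in the control libraries. Rg1 plus LPS replicate 5 was the highest of all 15 libraries, and replicates 1 and 4 were the lowest. It was called lower with Rg1 plus LPS against LPS (log2 -0.34 ± 0.13, adjusted p = 0.0396). That call was lost without any 1 of 9 libraries (Rg1 plus LPS replicates 1 to 4, LPS replicates 1, 2, 3 and 5, or control replicate 4), with adjusted p = 0.0504 to 0.105. Without Rg1 plus LPS replicates 1 and 4, the log2 fold change of Mmp2 was -0.15 (adjusted p = 0.25), without LPS replicates 2 and 3 it was -0.31 (adjusted p = 0.122), and with scaling to library size only it was -0.23 (adjusted p = 0.13). It was not called with LPS against control (log2 0.04 ± 0.13, adjusted p = 0.834). For Rg1 plus LPS against control it was -0.30 ± 0.13 (log2, adjusted p = 0.0801), and without Rg1 plus LPS replicate 5 it was -0.43 (adjusted p = 0.0027).

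Mmp14, a membrane-type MMP that activates the Mmp2 proenzyme at the cell surface, had 321.6, 406.7, 363.6, 340.4 and 464.7 CPM in the Rg1 plus LPS libraries, 453.7, 486.0, 470.7, 418.1 and 467.8 CPM in the LPS libraries, and 387.6, 366.3, 362.3, 375.0 and 357.4 CPM in the control libraries. Every LPS library was above every control library, and only Rg1 plus LPS replicate 5 reached into the LPS range. It rose with LPS against control by 0.31 ± 0.08 on the log2 scale (adjusted p = 0.0115) and fell with Rg1 plus LPS against LPS by 0.28 ± 0.08 (adjusted p = 0.0124). When Rg1 plus LPS replicates 1 and 4 were left out, the second difference was -0.15 (log2, adjusted p = 0.103). For Mmp14 it was also not called without LPS replicates 2 and 3 (adjusted p = 0.053) or with scaling to library size only (adjusted p = 0.0884). Of the other transmembrane membrane-type enzymes, Mmp24 averaged 1.98 ± 0.797 CPM with Rg1 plus LPS, 2.24 ± 0.677 CPM with LPS and 3.40 ± 0.918 CPM in control (SD, n = 5 each). It was called lower with Rg1 plus LPS against control (log2 -0.78 ± 0.28, adjusted p = 0.0394), a call lost without Rg1 plus LPS replicate 1, 2 or 5 and without control replicate 1, 3 or 5 (adjusted p = 0.0572 to 0.116). Mmp15 averaged 36.3 to 42.6 CPM and Mmp16 55.4 to 82.0 CPM over the 3 groups, and neither was called. Mmp16 with Rg1 plus LPS against control was -0.57 ± 0.23 (log2, adjusted p = 0.0684), and was called lower without Rg1 plus LPS replicate 2 or 5 or without LPS replicate 3 (adjusted p = 0.0329 to 0.047). The membrane-type enzymes with a lipid anchor, Mmp17 at 11.0 to 12.4 CPM and Mmp25 at 0.514 to 0.749 CPM, were not called in any comparison.

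Mmp11, the stromelysin that furin activates inside the cell, was among the 3 members that rose with Rg1 plus LPS against LPS. It averaged 25.4 ± 4.39 CPM with Rg1 plus LPS, 14.7 ± 2.88 CPM with LPS and 18.6 ± 1.25 CPM in control (SD, n = 5 each), and every Rg1 plus LPS library was above every LPS library. Mmp11 rose by 0.79 ± 0.13 on the log2 scale with Rg1 plus LPS against LPS (adjusted p = 0.000157) and by 0.45 ± 0.13 with Rg1 plus LPS against control (adjusted p = 0.0137). In LPS against control, it was -0.34 ± 0.13 (log2, adjusted p = 0.0756), and was called lower without Rg1 plus LPS replicate 1 or 5 or without LPS replicate 1 (adjusted p = 0.0364 to 0.0479). Mmp19, which cuts basement membrane proteins, averaged 58.2 ± 1.86 CPM with Rg1 plus LPS, 51.8 ± 5.01 CPM with LPS and 64.5 ± 3.33 CPM in control. It fell with LPS against control by 0.32 ± 0.06 on the log2 scale (adjusted p = 0.00172), with no overlap. Its call with Rg1 plus LPS against LPS (log2 0.17 ± 0.06, adjusted p = 0.041) was lost without any 1 of 8 libraries (Rg1 plus LPS replicates 3 and 5, LPS replicates 1, 2, 4 and 5, or control replicates 2 and 3), with adjusted p = 0.0501 to 0.117. Against control, Rg1 plus LPS gave -0.15 ± 0.06 (log2, adjusted p = 0.0809), and Mmp19 was called lower there without LPS replicate 3 (adjusted p = 0.0474). Mmp23, which has an unusual cysteine-rich domain in place of the hemopexin domain, averaged 17.1 to 21.8 CPM, and Mmp28, also called epilysin, averaged 8.86 to 9.70 CPM over the 3 groups. Neither was called. In fits without Rg1 plus LPS replicates 1 and 4, Mmp15 (log2 0.41, adjusted p = 0.0295), Mmp17 (log2 0.33, adjusted p = 0.0155) and Mmp23 (log2 0.45, adjusted p = 0.00749) were called higher with Rg1 plus LPS against LPS. Mmp23 was also called higher with Rg1 plus LPS against control without Rg1 plus LPS replicate 1 (log2 0.49, adjusted p = 0.0159) and without replicates 1 and 4 (log2 0.62, adjusted p = 0.00123).

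All 4 TIMPs differed between Rg1 plus LPS and LPS, with 3 lower and 1 higher. Timp1, a secreted inhibitor of most soluble MMPs, had 133.8, 155.1, 123.4, 158.6 and 180.5 CPM in the Rg1 plus LPS libraries, 337.6, 352.2, 341.3, 323.7 and 394.5 CPM in the LPS libraries, and 188.1, 124.4, 144.5, 157.9 and 207.9 CPM in the control libraries. All LPS libraries stood above both other groups, which overlapped. Timp1 fell with Rg1 plus LPS against LPS by 1.22 ± 0.13 on the log2 scale (adjusted p = 1.26e-06) and rose with LPS against control by 1.09 ± 0.13 (adjusted p = 7.87e-06). In Rg1 plus LPS against control, it was not called (log2 -0.13 ± 0.13, adjusted p = 0.44). Under 2 of 27 alternative fits Timp1 was called lower there, with a smallest adjusted p of 0.00873. Its log2 fold change ran from -0.38 to -0.04 over these alternatives.

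Timp2, which inhibits MMPs and also links the Mmp2 proenzyme to Mmp14, had 2157.2, 2091.9, 1824.6, 2174.8 and 2434.2 CPM in the Rg1 plus LPS libraries, 3147.3, 2804.2, 2256.6, 3039.6 and 3230.6 CPM in the LPS libraries, and 2658.8, 2311.3, 2493.4, 2259.2 and 2706.4 CPM in the control libraries. LPS replicate 3 was the lowest LPS library, lying within the Rg1 plus LPS range and just below the lowest control library. Timp2 fell with Rg1 plus LPS against LPS by 0.44 ± 0.10 on the log2 scale (adjusted p = 0.00185). It was not called with LPS against control (log2 0.22 ± 0.10, adjusted p = 0.118) or with Rg1 plus LPS against control (log2 -0.22 ± 0.10, adjusted p = 0.0949). Without LPS replicate 3 both were called, at 0.29 (adjusted p = 0.0145) and -0.22 (adjusted p = 0.0329).

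Timp3, which binds to the matrix and also inhibits Adamts4, Adamts5 and the sheddase Adam17, had 550.6, 995.0, 1079.3, 624.4 and 968.5 CPM in the Rg1 plus LPS libraries, 1151.3, 1422.5, 1640.3, 1077.8 and 1305.8 CPM in the LPS libraries, and 1430.9, 1472.6, 1417.0, 1370.0 and 1399.3 CPM in the control libraries. All Rg1 plus LPS libraries were below the control libraries, replicates 1 and 4 were lowest, and replicate 3 just exceeded the lowest LPS library. Timp3 fell by 0.65 ± 0.16 on the log2 scale with Rg1 plus LPS against LPS (adjusted p = 0.00434) and by 0.75 ± 0.16 with Rg1 plus LPS against control (adjusted p = 0.00216). Without Rg1 plus LPS replicates 1 and 4, these were -0.37 (adjusted p = 0.0123) and -0.48 (adjusted p = 0.00378). With LPS against control Timp3 was not called (log2 -0.10 ± 0.16, adjusted p = 0.681).

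Timp4, the TIMP best known from brain and heart, had 97.9, 67.4, 74.5, 101.8 and 68.4 CPM in the Rg1 plus LPS libraries, 47.4, 50.2, 45.4, 56.4 and 48.8 CPM in the LPS libraries, and 65.4, 54.9, 57.5, 46.9 and 71.3 CPM in the control libraries. Every Rg1 plus LPS library was above every LPS library, and replicates 1 and 4 of the Rg1 plus LPS group, low for most members, were highest here. Timp4 rose by 0.72 ± 0.13 on the log2 scale with Rg1 plus LPS against LPS (adjusted p = 0.000268) and by 0.47 ± 0.13 with Rg1 plus LPS against control (adjusted p = 0.00919). Without these replicates the first was 0.51 (adjusted p = 0.00122) and the second 0.25 (adjusted p = 0.0854). In LPS against control, its log2 fold change was -0.25 ± 0.13 (adjusted p = 0.167).

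The 11 members with too few counts to test were Mmp1a, Mmp1b, Mmp7, Mmp8, Mmp9, Mmp21, Mmp27, Adamts13, Adamts18, Adamts19 and Adamtsl2. The gelatinase Mmp9, often measured in inflamed brain, had summed counts of 19 in the Rg1 plus LPS group, 47 in the LPS group and 8 in the control group. Mmp9 had 4, 5, 15, 11 and 12 counts in the LPS libraries and 0 to 2 in the control libraries, so the groups did not overlap, while the Rg1 plus LPS libraries held 0 to 6. When no filter on low counts was applied, Mmp9 was called higher with LPS against control (log2 2.48 ± 0.71, adjusted p = 0.0226) and not called with Rg1 plus LPS against LPS (log2 -1.44 ± 0.64, adjusted p = 0.11). The summed level of 9 neutrophil markers, a cell type rich in Mmp8 and Mmp9, was at most 0.186 CPM in a Rg1 plus LPS library, 0.43 CPM in an LPS library and 0.364 CPM in a control library.

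Mmp1b, a rodent relative of the human interstitial collagenase, had summed counts of 3 in the Rg1 plus LPS group, 27 in the LPS group and 8 in the control group. Without the filter Mmp1b was called lower with Rg1 plus LPS against LPS (log2 -3.05 ± 0.90, adjusted p = 0.0137). It shares 157 exonic bases with Mmp12 on the opposite strand. Mmp1a, the second such gene, had summed counts of 8, 2 and 14 in the Rg1 plus LPS, LPS and control groups. The neutrophil collagenase Mmp8 had 16, 23 and 8 counts in the groups in that order, and Mmp27 had 20, 29 and 12. Adamtsl2, which binds fibrillin, had summed counts of 11, 8 and 20 in the Rg1 plus LPS, LPS and control groups. The other 5 had at most 3 counts over any group. These were the matrilysin Mmp7, Mmp21, Adamts13, which cuts von Willebrand factor, Adamts18 and Adamts19.

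Some members share exonic bases with a gene on the other strand, and no source used here states the strand setting of the counting, so reads of such pairs may not be told apart. Mmp11 shares 155 exonic bases with Chchd10, which was at 49.2 FPKM with Rg1 plus LPS, 28.3 FPKM with LPS and 40.9 FPKM in control and so had the same order of groups as Mmp11. Adamts9 shares 1381 bases with A730049H05Rik, which was at 3.38 FPKM with Rg1 plus LPS, 2.17 FPKM with LPS and 2.91 FPKM in control, the reverse of the order of Adamts9. Adamts7 shares 122 bases with Tbc1d2b, Mmp24 shares 637 with BC029722, Mmp19 shares 789 with Tmem198b and Mmp28 shares 466 with 1700020L24Rik. BC029722 was far above Mmp24, at 65.1 FPKM with Rg1 plus LPS, 50.0 FPKM with LPS and 54.5 FPKM in control. Mmp24 was at 0.481, 0.504 and 0.783 FPKM in these groups. Timp1, Timp3 and Timp4 lie inside the synapsin genes Syn1, Syn3 and Syn2, with 0, 1733 and 90 shared exonic bases. Syn3 was at most at 0.00562 FPKM in a group mean and Syn2 at most at 4.15 FPKM, against 16.3 FPKM or more for Timp4. The share of such reads in the members' counts was not tested.

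Genes of the same pathway were counted from lists, whose shares called stand against 45.4% of all tested genes with Rg1 plus LPS against LPS, 23.7% with LPS against control and 36.9% with Rg1 plus LPS against control. Of 9 tested genes of plasminogen activation, which can activate MMP proenzymes, 0 were higher and 5 lower with Rg1 plus LPS against LPS (55.6% called), and 1 was higher and 2 lower with LPS against control (33.3%). Plau, the urokinase gene, averaged 3.68 ± 0.682 CPM with Rg1 plus LPS, 13.2 ± 2.03 CPM with LPS and 15.8 ± 4.68 CPM in control (SD, n = 5 each), and fell with Rg1 plus LPS against LPS by 1.85 ± 0.19 on the log2 scale (adjusted p = 1.15e-06). Serpinb2, an inhibitor of these activators, fell as well (log2 -4.24 ± 0.53, adjusted p = 1.09e-05). For LPS against control, Tfpi2, a Kunitz-type protease inhibitor, was higher (log2 1.08 ± 0.32, adjusted p = 0.0235), and Serpinf2 (log2 -1.09 ± 0.31, adjusted p = 0.0164) and Serpinb2 (log2 -1.29 ± 0.39, adjusted p = 0.0255) were lower.

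Of 23 tested genes of matrix proteins, which are substrates of the members, 1 was higher and 14 lower with Rg1 plus LPS against LPS (65.2% called), and 5 were higher and 0 lower with LPS against control (21.7%). The laminin chain gene Lamc1 averaged 148.8 ± 15.3 CPM with Rg1 plus LPS, 380.8 ± 27.4 CPM with LPS and 288.5 ± 6.4 CPM in control (SD, n = 5 each). Lamc1 fell by 1.36 ± 0.07 on the log2 scale with Rg1 plus LPS against LPS (adjusted p = 2.02e-10) and rose by 0.40 ± 0.07 with LPS against control (adjusted p = 0.000392). The type IV collagen genes of basement membrane fell as well with Rg1 plus LPS against LPS, Col4a1 by 0.94 ± 0.10 (adjusted p = 8.83e-07) and Col4a2 by 1.07 ± 0.11 (adjusted p = 9.43e-07) on the log2 scale. Bcan, the gene of brevican and so of a substrate of Adamts4, was the gene that was higher (log2 0.29 ± 0.06, adjusted p = 0.000812). In LPS against control, the perlecan gene Hspg2 (log2 0.70 ± 0.15, adjusted p = 0.00274) and Col4a2 (log2 0.48 ± 0.11, adjusted p = 0.00414) rose.

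Of 15 tested genes of other regulators of these proteases, 2 were higher and 5 lower with Rg1 plus LPS against LPS (46.7% called), and 1 was higher and 3 lower with LPS against control (26.7%), so both shares were near those of all genes. Lrp1, the endocytic receptor that clears several MMPs and aggrecanases, was lower with Rg1 plus LPS against LPS (log2 -0.51 ± 0.09, adjusted p = 0.000298), as were the cathepsin gene Ctss (log2 -2.08 ± 0.39, adjusted p = 0.000503), which is also a microglial marker, and Reck, a membrane-anchored MMP inhibitor (log2 -0.31 ± 0.10, adjusted p = 0.0143). Cst3 (cystatin C, log2 0.67 ± 0.13, adjusted p = 0.000382) and Ctsb (cathepsin B, log2 0.23 ± 0.07, adjusted p = 0.0132) were higher. With LPS against control Furin, which activates membrane-type MMPs and ADAMTS proenzymes, was higher (log2 0.36 ± 0.11, adjusted p = 0.0202). Ctsb (log2 -0.29 ± 0.07, adjusted p = 0.00607), Cst3 (log2 -0.46 ± 0.13, adjusted p = 0.0128) and the broad protease inhibitor A2m (log2 -0.65 ± 0.22, adjusted p = 0.0482) were lower. Of 10 tested ADAM genes, relatives of the ADAMTS family, 1 was higher and 6 lower with Rg1 plus LPS against LPS (70.0% called), and 1 was higher and 0 lower with LPS against control (10.0%). That gene was Adam17, the sheddase of tumour necrosis factor and a target of Timp3, which was higher with LPS against control (log2 0.32 ± 0.07, adjusted p = 0.00352) and lower with Rg1 plus LPS against LPS (log2 -0.34 ± 0.07, adjusted p = 0.000782). Adam22 (log2 -0.38 ± 0.06, adjusted p = 0.000152) and Adam19 (log2 -0.92 ± 0.16, adjusted p = 0.000219) were also lower with Rg1 plus LPS against LPS, and Adam33 was higher (log2 0.69 ± 0.17, adjusted p = 0.00303). For Rg1 plus LPS against control, 5 plasminogen genes, 11 matrix protein genes, 4 other regulators and 4 ADAM genes were lower, and 1 matrix protein gene and 1 ADAM gene were higher. The lists had, in that order, 55.6%, 52.2%, 26.7% and 50.0% called, against 36.9% of all tested genes. Plau (log2 -2.10 ± 0.19, adjusted p = 7.1e-07) and Serpinb2 (log2 -5.53 ± 0.53, adjusted p = 1.5e-06) were among the plasminogen genes that were lower there. Among the matrix protein genes Lamc1 (log2 -0.95, adjusted p = 6.01e-08), the fibronectin gene Fn1 (log2 -0.66, adjusted p = 9.6e-05) and Col4a1 (log2 -0.57, adjusted p = 0.000258) were lower, and Bcan (log2 0.18, adjusted p = 0.0249) was higher. Of the other regulators Lrp1 (log2 -0.38, adjusted p = 0.00379), Ctss (log2 -1.64, adjusted p = 0.00404) and the thrombospondin gene Thbs1 (log2 -0.91, adjusted p = 0.011) were lower. Of the ADAM genes Adam22 (log2 -0.39, adjusted p = 0.000216), Adam19 (log2 -0.94, adjusted p = 0.000297) and the sheddase Adam10 (log2 -0.28, adjusted p = 0.00992) were lower, and Adam33 (log2 0.93, adjusted p = 0.000472) was higher.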

How the data were processed

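The deposited tables hold, per library, raw counts and FPKM (fragments per kilobase, scaled to depth) as the authors made them. The deposited FPKM equal count over gene length and total count to a relative deviation of at most 7.22e-10, apart from at most 37 rows per file with damaged symbols, none of them a member. Builds GRCm38 and mm10 are named per the submitters' processing notes; no source used here names the aligner, the counter or the strand setting. The members and gene lists were chosen with earlier results of these data known. Every member is named. Values in every library are given for tested Timp genes, for members called with at least 2-fold difference with Rg1 plus LPS against LPS or LPS against control, and for the 3 members of highest control FPKM in each other family; of each pathway list, up to 3 genes of smallest adjusted p per direction are named.

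All 15 libraries entered 1 fit of the counts by edgeR 4.0.16 under R 4.3.3 (filterByExpr, TMM scaling, robust quasi-likelihood fit with group as the only term, F-tests), and p-values were adjusted by the Benjamini-Hochberg method over 15362 genes. The procedure was tested on simulated data. CPM are TMM-scaled and serve to compare a gene between libraries, and FPKM serve to compare genes. Alternatives were scaling to library size only, RLE factors, DESeq2 1.42.0, limma 3.58.1 with voom, no filter and a stricter filter (at least 1 CPM in 5 libraries), a replicate block, removal of the gene length trend, fits on 2 groups, and fits without single libraries or without the pairs LPS replicates 2 and 3 and Rg1 plus LPS replicates 1 and 4. The libraries differ little in depth, and no replicates were near-identical. Positions and promoters come from RefSeq (GRCm38.p6) and exon overlaps from GENCODE. Some genes outside the members are not reported here.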

Additional observations from a re-analysis of the deposited data

How the results depend on the processing

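No member changed direction where it was called under any alternative run. The counts of members called moved by more than 1.5 times in these cases. With Rg1 plus LPS against control, 11 members were lower with DESeq2 and 11 with the replicate block, against 7. With LPS against control, 4 were lower when only these 2 groups were fitted and 4 without Rg1 plus LPS replicates 1 and 4, against 2. With Rg1 plus LPS against LPS, 6 were higher without Rg1 plus LPS replicates 1 and 4, against 3. Leaving out each library in turn gave 2 to 3 members higher and 12 to 17 lower with Rg1 plus LPS against LPS, 9 to 13 higher and 2 to 3 lower with LPS against control, and 3 to 4 higher and 5 to 11 lower with Rg1 plus LPS against control, the 11 without LPS replicate 3. The cause was not tested.

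Replicate numbers were not taken to pair the libraries, since the labels do not say that a number marks a shared culture. Same-numbered deviations correlated at 0.078 to 0.564 with Rg1 plus LPS against LPS, with 4 of 5 pairs over 0.1 and 3 libraries correlating best with their own number, which is a hint of pairing from the data and not from the design. In LPS against control, 1 of 5 pairs was over 0.1, and with Rg1 plus LPS against control 2 of 5 were. With the replicate block, all 19 members called with Rg1 plus LPS against LPS kept their call and Adamtsl3 was added as lower (adjusted p = 0.031). For LPS against control, 10 of 12 higher and both lower calls were kept, Adamts5 (adjusted p = 0.0685) and Mmp10 (adjusted p = 0.0803) lost theirs, and Mmp12 was added as higher (adjusted p = 0.0228) and Adamtsl3 as lower (adjusted p = 0.0302). Scaling to library size only moved the median of all genes with Rg1 plus LPS against LPS from 0.03 to 0.14 on the log2 scale and the share of calls that were higher from 48.9% to 65.0%. With LPS against control that share was 45.9% against 58.5%, and with Rg1 plus LPS against control 63.9% against 50.9%. Under that scaling 12 of the 16 lower members and all 3 higher members with Rg1 plus LPS against LPS kept their calls, and Adamts6, Adamts14, Mmp2 and Mmp14 lost theirs. For the 11 members with too few counts, no difference was tested in the main fit, and those from the fit without the filter rest on few counts.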
